A study of Homo sapiens with 2 samples.

Results

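The outer kinetochore genes NDC80, NUF2, SPC24, SPC25, SKA1 and SKA3 were examined in A549 cells, a human lung adenocarcinoma line, after paclitaxel. They were taken as every row that carries one of these 6 symbols in the deposited tables, which gave 8 of the 993 transcripts in the expression table and 10 of the 35827 events in the table of skipped exons. The 8 transcripts belong to 6 of the 812 genes of the expression table. The 6 symbols were chosen with earlier results of these data known, and SKA2, which was not listed, is not among them. That every member was found there, and their shared direction below, are therefore no test. The DMSO library came from cells that received the solvent, and the paclitaxel library from cells that received 7.22 nM of the drug, in each case for 72 h. Each condition had 1 library, so no spread between replicates exists, no test was possible and no p-value is given. Paclitaxel is a cancer drug that stabilizes microtubules, the filaments of which the spindle is built.

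The kinetochore is the protein assembly on each centromere that holds the chromosome to the spindle. The NDC80 complex is a long rod with 1 copy of each of its 4 subunits. NDC80 (also called HEC1) and NUF2 form the end that grips the microtubule, and SPC24 and SPC25 form the end that is anchored in the chromosome. The SKA complex is loaded onto the NDC80 complex in mitosis and helps it to hold on to microtubules that shrink. SKA1 carries a domain that binds microtubules, and SKA3 carries the sites through which the complex docks on NDC80. These proteins are made mostly by cells that approach or pass through mitosis.

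The expression table gives an FPKM value per transcript and library, which is a number of fragments scaled by transcript length and by the mapped fragments of the library. It lists only transcripts that the authors called different between the libraries. No listed change is smaller than 1.52 in log2 size, so a listed gene had to differ and only its direction was free. The read depth is unknown from these values. In bulk RNA, fewer dividing cells and less of these RNAs in each dividing cell cannot be told apart. Red blood cell markers moved with the condition as well: 3 of 9 were listed, HBA1 (0.0615 with DMSO and 161 FPKM with paclitaxel), HBA2 (0.0566 and 188 FPKM) and HBB (listed at 0 with DMSO and at 108 FPKM with paclitaxel). HBA1 and HBA2 are nearly identical, which makes the split between them uncertain. The part of these markers in the results on kinetochore genes was not tested. None of the 5 immune markers and none of the 6 fibroblast and endothelial markers was listed. Of 8 lung epithelium markers KRT19 was listed, at 22.9 FPKM in the DMSO library and 107 FPKM in the paclitaxel library, and the level of the other 7 cannot be read from a table of called transcripts.

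All 6 genes of the NDC80 and SKA complexes were lower with paclitaxel, where 51.0% of the 812 listed genes were lower. Where a gene had several listed transcripts, the one that reached the highest FPKM stands for it here. The 6 genes stood between 7.43 and 22.3 FPKM with DMSO and between 0.683 and 1.67 FPKM with paclitaxel. Their median log2 ratio of paclitaxel over DMSO was -3.65, against -1.70 over all listed genes and -3.07 over the 414 listed genes that were lower. The value of -1.70 lies near the limit of 1.52 in log2 size below which nothing is listed, so it stands for no typical change. Of the 414 lower genes, 129 (31.2%) had a ratio below the median of the 6. By transcript, all 8 were lower, against 53.9% of the 993 listed transcripts.

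At the microtubule-gripping end of the NDC80 complex, NDC80 (ENST00000261597) was at 7.43 FPKM with DMSO and at 0.977 FPKM with paclitaxel. This is a log2 ratio of -2.93, which leaves 13.2% of the DMSO level, and it was the smallest change among the 6 genes. Its partner NUF2 (ENST00000271452) was at 13.4 FPKM with DMSO and at 1.13 FPKM with paclitaxel. The log2 ratio of NUF2 was -3.57, and 8.41% of its DMSO level was left. NUF2 thus had the higher level of the pair in both libraries and the larger change.

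At the anchored end, SPC25 (ENST00000282074) had the highest level of the 6 genes in both libraries, 22.3 FPKM in the control and 1.67 FPKM in the treated cells. The log2 ratio of SPC25 was -3.74, with 7.50% left. SPC24 was listed with 2 transcripts. Its MANE Select transcript ENST00000592540, the reference form that Ensembl and RefSeq share, went from 14.9 to 0.928 FPKM, a log2 ratio of -4.00. The shorter ENST00000592967 went from 11.8 to 1.19 FPKM, a log2 ratio of -3.30. Both SPC24 transcripts moved the same way, and the longer one was the higher of the pair with DMSO and the lower with paclitaxel. All 833 bases of the shorter form lie within the 2290 bases of the longer form, so how the fragments were divided between them is an estimate.

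In the SKA complex, SKA1 was also listed with 2 transcripts. ENST00000398452 went from 12.7 to 0.683 FPKM, a log2 ratio of -4.22 and the largest change among the 8 transcripts. The MANE Select form ENST00000285116 went from 12.5 to 0.974 FPKM, a log2 ratio of -3.68. They share 928 bases and the same 765 coding bases, and the MANE Select form runs on for another 1921 bases at its 3′ end. With DMSO the 2 SKA1 forms thus stood close together, and with paclitaxel the form with the long 3′ end was the higher of the pair. Both were under 1 FPKM with paclitaxel, and the shorter form shares 94.8% of its bases, so this split is an estimate too. SKA3 (ENST00000314759) was at 9.91 FPKM with DMSO and at 0.915 FPKM with paclitaxel, a log2 ratio of -3.44 with 9.23% left. SKA2, the third subunit of this complex, was not listed, so its level is not known here.

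**Figure D1:**
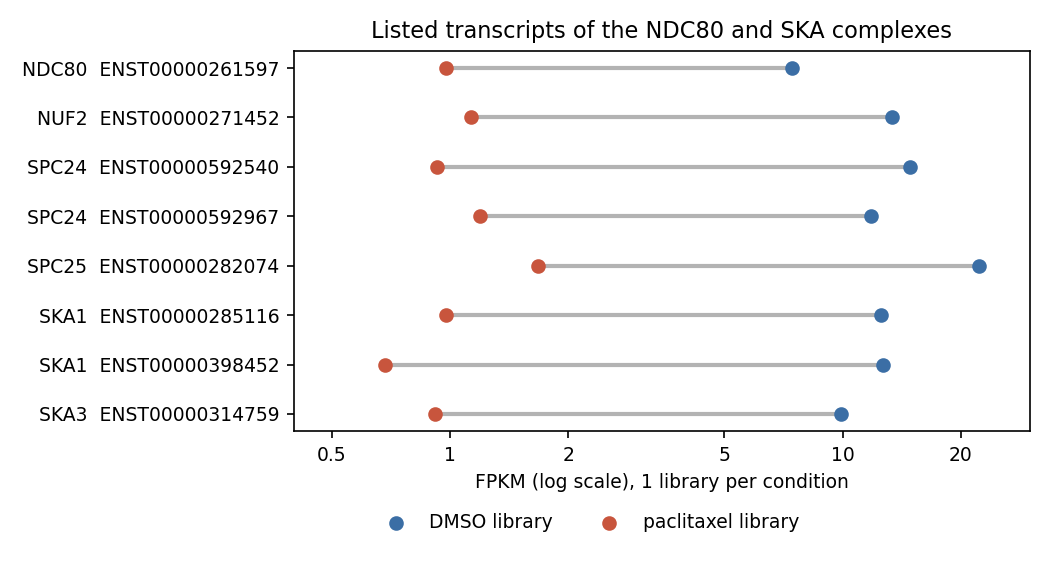
FPKM (x axis, log scale) of the 8 listed transcripts of NDC80, NUF2, SPC24, SPC25, SKA1 and SKA3 in the DMSO library (blue) and the paclitaxel library (red), with 1 library per condition and a grey line joining both values of a transcript. Blue points lie between 7.43 and 22.3 FPKM and red points between 0.683 and 1.67 FPKM.

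The order of the genes by level differed between the libraries. With DMSO it was SPC25, SPC24, NUF2, SKA1, SKA3 and NDC80, from the highest to the lowest. With paclitaxel it was SPC25, NUF2, NDC80, SPC24, SKA3 and SKA1. Without replicates neighbours in these orders cannot be separated, and NDC80, SPC24 and SKA3 lay between 0.915 and 0.977 FPKM with paclitaxel. The order also depends on how the transcripts of a gene are combined. With all listed transcripts of a gene summed, SPC24 was the highest in both libraries (26.6 FPKM in the DMSO library, 2.12 FPKM in the paclitaxel library), followed with DMSO by SKA1 at 25.2 FPKM.

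Within the NDC80 complex the balance between subunits was uneven in both libraries. Of the summed FPKM of the 4 subunits with DMSO, NDC80 made up 12.8%, NUF2 23.2%, SPC24 25.6% and SPC25 38.4%. With paclitaxel NDC80 made up 20.8%, NUF2 24.0%, SPC24 19.7% and SPC25 35.5%. The share of NDC80 was thus higher and that of SPC24 lower in the paclitaxel library, while the sum over the 4 subunits went from 58.1 to 4.71 FPKM, 12.3-fold lower. With all listed transcripts summed, the share of NDC80 was 10.6% with DMSO and 16.6% with paclitaxel, and that of SPC24 was 38.2% and 35.9%. The 2 SKA genes together went from 22.6 to 1.60 FPKM, 14.2-fold lower.

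**Figure D2:**
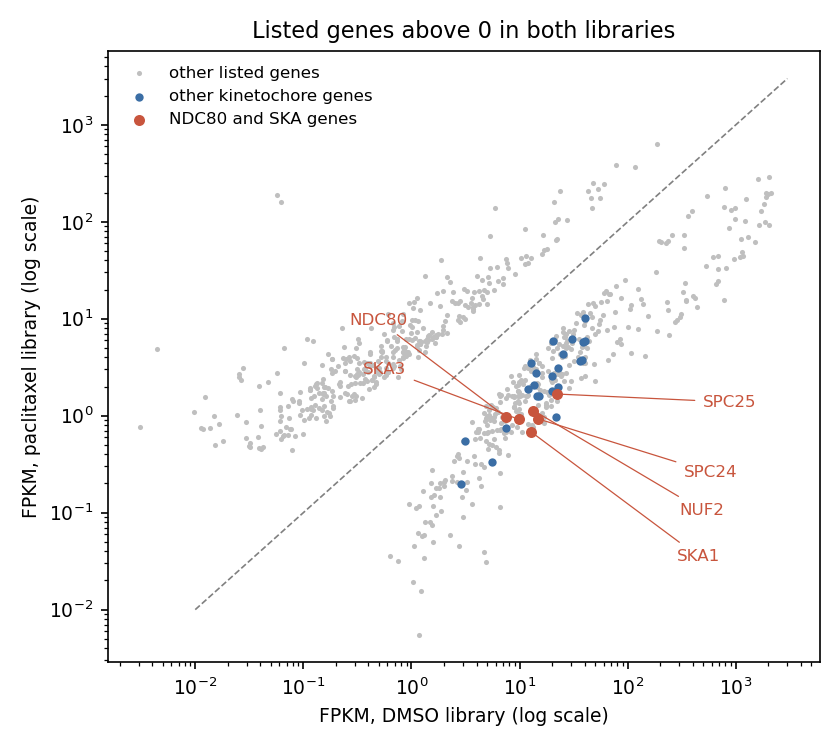
FPKM of each listed gene without (x axis, DMSO) and with paclitaxel (y axis), on log axes, for the 756 genes above 0 in both libraries, with a dashed line at equal values. The NDC80 and SKA genes (red, named) and the other kinetochore genes (blue) lie below the line, and the red points span 7.43 to 22.3 FPKM with DMSO.

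The genes whose pair of values lay nearest to the median of the 6 members (13.1 FPKM for DMSO, 0.952 FPKM for paclitaxel) were CDCA3, PKMYT1, MCM10, NCAPG, FAM64A and RRM2. Nearness is the distance between log2 FPKM values over 2 libraries, among 750 other listed genes above 0 in both. CDCA3, a factor that helps to trigger mitotic entry, was the nearest, at 15.0 and 1.01 FPKM and a distance of 0.215. PKMYT1, a kinase that holds CDK1 inactive, followed at 12.1 and 0.824 FPKM with a distance of 0.239. MCM10, a replication initiation factor (13.1 and 0.792 FPKM), and NCAPG, a condensin subunit (13.2 and 1.16 FPKM), lay at 0.265 and 0.282. FAM64A (13.3 and 0.762 FPKM) lay at 0.321, and the listed transcript of RRM2, a subunit of ribonucleotide reductase (10.3 and 0.927 FPKM), at 0.342. Among the members themselves the distance to this median ran from 0.188 for SPC24 to 1.12 for SPC25.

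Other kinetochore genes went the same way as the NDC80 and SKA genes. Of 45 genes in 5 further lists, 24 were listed, and all 24 were lower with paclitaxel, where 51.0% of the 812 listed genes were lower. The median log2 ratio of the 24 was -2.93, a smaller change than the -3.07 over the 414 listed genes that were lower. These lists too were chosen with earlier results of these data known. By the transcript that stands for each gene, 2 of these 24 had a ratio below that of every member. Another 10 lay within the range of the members, and 12 had a smaller change than every member. Among these 12, further listed transcripts of KNL1 (log2 ratio -4.08), ZWINT (-3.99), TRIP13 (-3.28) and CENPN (-3.28) had larger changes than NDC80. Another ZWINT transcript (-2.54) had a smaller one. The difference between these genes and the members has no test here.

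In a list of 7 genes that holds partners of the NDC80 complex and the SKA subunit SKA2, KNL1 (under its older symbol CASC5) and ZWINT were listed. KNL1, the scaffold on which checkpoint proteins gather, went from 3.12 to 0.548 FPKM, and its second listed transcript from 1.72 to 0.102 FPKM. ZWINT, which binds KNL1, went from 40.0 to 5.91 FPKM. The MIS12 complex, on which SPC24 and SPC25 are anchored, had none of its genes MIS12, DSN1, NSL1 and PMF1 listed.

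Spindle checkpoint genes, whose products watch for kinetochores without microtubules, were listed in 5 of 8 cases, with a median log2 ratio of -2.95. The checkpoint kinases BUB1 and TTK went from 36.2 to 3.64 FPKM and from 15.2 to 1.61 FPKM. BUB1B, a part of the inhibitor of the anaphase-promoting complex, went from 19.9 to 2.56 FPKM, MAD2L1 from 13.5 to 2.09 FPKM and TRIP13, the enzyme that remodels MAD2, from 38.8 to 5.71 FPKM. A second BUB1 transcript went from 2.42 FPKM to a listed 0.

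KNTC1 and ZWILCH, subunits of the complex that brings dynein to kinetochores, had the smallest changes of all these genes. KNTC1 went from 12.8 to 3.52 FPKM, a log2 ratio of -1.86, and ZWILCH from 20.6 to 5.88 FPKM, a log2 ratio of -1.81. ZW10 and SPDL1 of the same list were not listed.

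Of 10 genes whose products bind microtubules at kinetochores or aid the NDC80 complex there, 7 were listed, with a median log2 ratio of -3.33. KIF2C, a kinesin that takes microtubule ends apart, went from 22.6 to 1.99 FPKM, and KIF18A, which limits chromosome movement, from 14.3 to 2.77 FPKM. CENPE, a kinesin that carries chromosomes to the spindle middle, went from 2.84 to 0.199 FPKM, and CENPF from 14.5 to 1.59 FPKM. The partners SPAG5 (astrin) and KNSTRN went from 37.6 to 3.75 FPKM and from 40.0 to 10.1 FPKM, so their log2 ratios of -3.33 and -1.99 lay apart. CDT1, which licenses replication origins and also binds the NDC80 complex, went from 19.8 to 1.78 FPKM.

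In the inner kinetochore, 8 of 16 genes were listed, with a median log2 ratio of -3.12. CENPM had the lowest finite ratio of all kinetochore genes examined, from 21.9 to 0.968 FPKM or -4.50 on the log2 scale, and CENPO went from 5.96 FPKM to a listed 0. CENPK went from 5.58 to 0.334 FPKM and CENPI from 7.53 to 0.743 FPKM. By the transcript that stands for each gene, 4 others had smaller log2 changes than each NDC80 and SKA gene. They were CENPH (30.7 to 6.14 FPKM), CENPW (25.2 to 4.36 FPKM), CENPU (11.9 to 1.87 FPKM) and CENPN (22.9 to 3.07 FPKM). The second listed CENPN transcript went from 17.1 to 1.76 FPKM, a log2 ratio of -3.28 and a larger change than that of NDC80. That of CENPI went from 5.16 to 1.04 FPKM, a log2 ratio of -2.31. CENPT, which anchors NDC80 complexes directly, and CENPC were not listed.

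**Figure D3:**
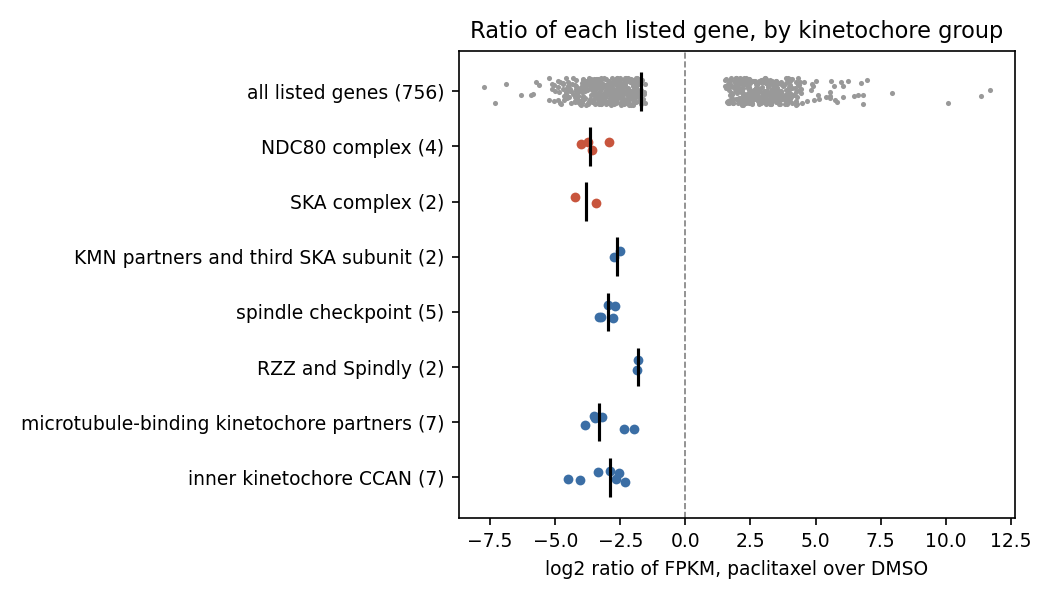
Log2 ratio of FPKM, paclitaxel over DMSO (x axis), of each listed gene above 0 in both libraries, by group, with the number of genes in brackets, a black bar at the median and a dashed line at 0. The NDC80 (median -3.65) and SKA genes (median -3.83) and all other kinetochore genes lie to the left of 0, and CENPO is not drawn because it is listed at 0 with paclitaxel, so the inner kinetochore bar stands at -2.90 over 7 genes.

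Since the 6 genes were lower together, their promoters are shown. The cell cycle genes homology region (CHR) is a short element near the start of many genes that are transcribed late in the cell cycle. Its forms TTTGAA (form A), TTTAAA (form B) and TTCGAA (form C) and the NF-Y box CCAAT were searched on both strands in the 300 bases from 250 before to 50 after the RefSeq start, in the build GRCh38.p14. Bases are counted from the start, the first transcribed base being 1 and the base before it -1. All 6 genes matched a window in this reference. These are 30 bases around form A (or its complement) near the start of the 5 genes that hold it, with elements in capitals.
NDC80, chr18:2571542-2571571, plus strand: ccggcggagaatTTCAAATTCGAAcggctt
NUF2, chr1:163321958-163321987, plus strand: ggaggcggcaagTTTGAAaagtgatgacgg
SPC25, chr2:168890416-168890445, minus strand: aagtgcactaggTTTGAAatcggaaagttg
SKA1, chr18:50375066-50375095, plus strand: ggcgcggcgggcggTTTGAAttttgcttac
SKA3, chr13:21176538-21176567, minus strand: ccggcgccgagaTTCAAActagtggcggga

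The motifs were chosen with these 6 sequences in view, so the shares given here are no test. Form A was matched in 5 of the 6 windows, and 15.2% of all 35116 promoter windows held it. In NDC80, SPC25 and SKA3 it lay across the start, from base -3 to base 3, in NDC80 and SKA3 on the opposite strand. In NUF2 it lay from base 17 to 22 and in SKA1 from base 35 to 40. SPC25 held it again far upstream, from base -247 to -242. Form C followed directly in NDC80, from base 4 to 9, and 1.45% of all windows held that form. Form B was in none of the 6 windows and in 12.2% of all windows. Within the stretch from base -10 to base 50, which was chosen after the positions were seen, 2.67% of all windows held form A. Of the other listed genes, a window was matched for 340 of 408 lower and 320 of 398 higher with paclitaxel. In that stretch, 8.53% of these lower genes and 1.25% of these higher genes held form A. Over the whole window, the shares of these lower and higher genes were 29.4% and 13.1%. These shares describe letters and say nothing of what binds there.

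SPC24 was the gene without a CHR form, and it held 3 NF-Y boxes. SPC25 held 2, and 34.6% of all windows held at least 1. The 150 bases before the start of both genes of the anchored end are given because they hold most of these boxes, which are in capitals (ATTGG where the box is on the other strand).
SPC24, chr19:11155783-11155932, minus strand: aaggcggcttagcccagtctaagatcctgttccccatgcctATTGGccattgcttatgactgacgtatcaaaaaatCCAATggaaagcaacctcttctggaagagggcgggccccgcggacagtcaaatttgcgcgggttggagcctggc
SPC25, chr2:168890431-168890580, minus strand: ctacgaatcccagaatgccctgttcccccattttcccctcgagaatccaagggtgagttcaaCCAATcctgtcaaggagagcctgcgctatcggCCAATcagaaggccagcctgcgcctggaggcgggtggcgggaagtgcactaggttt
In SPC24 the third box lies further upstream, from base -207 to -203, outside the printed stretch. NDC80, NUF2, SKA1 and SKA3 held no NF-Y box in this window.

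**Figure D4:**
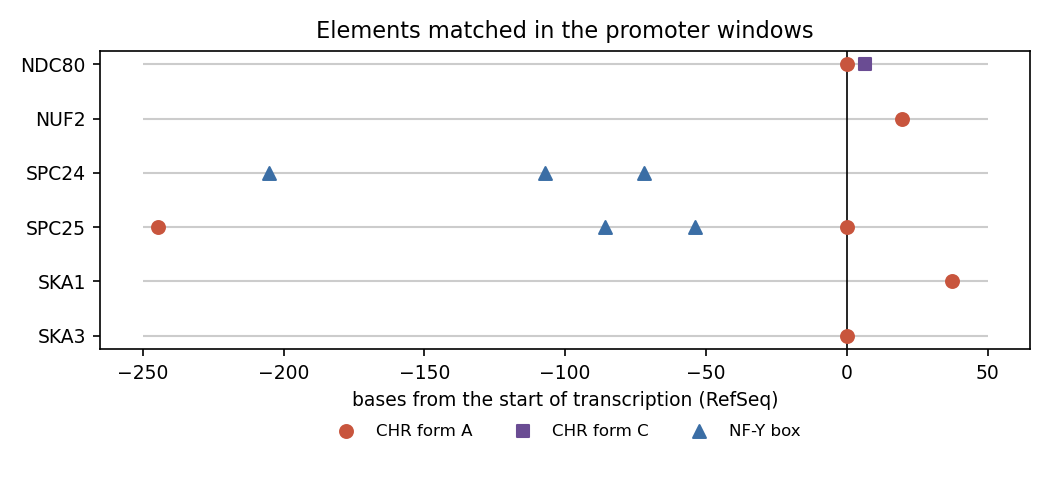
Positions of the matched elements (x axis, bases from the RefSeq start of transcription, black line) in the 300-base window of each gene, with circles for CHR form A, a square for CHR form C and triangles for NF-Y boxes. Circles of NDC80, SPC25 and SKA3 sit on the start, and SPC24 has triangles only.

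The table of skipped exons lists internal exons that the authors tested for inclusion. Its values per library name no condition and were not used, so the text below gives which exons of these genes were listed and what they encode, and no level of inclusion. Of the 6 genes, 5 had events, NUF2 and SKA3 with 3 each, SKA1 with 2, and NDC80 and SPC25 with 1 each. SPC24 had none, and genes of the table had a median of 3 events. The 10 events are 10 distinct exons of 62 to 229 nucleotides with a median of 128, against a median of 121 over the 31197 exons of the table. A length that is a multiple of 3 was found in 4 of the 10, against 41.1% of the exons of the whole table. All 10 are exons of GENCODE 44 with the same start and end, and all 10 are flanked by AG and GT in hg38.

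Exons that shift the reading frame lie in NDC80, NUF2, SKA1 and SKA3. The reading frames given here were computed from the reference transcript without the exon and are not measurements. Without exon 3 of SKA1 (125 nucleotides), the frame would close after 32 of 255 codons, and without exon 2 of SKA3 (62 nucleotides) after 35 of 412. Without exon 7 of NUF2 (74 nucleotides) it would close after 149 of 464 codons, and without exon 15 of NDC80 (131 nucleotides) after 528 of 642. GENCODE has 2 transcripts that skip exon 3 of SKA1, 1 that skips exon 2 of SKA3, and none that skips exon 7 of NUF2 or exon 15 of NDC80. These exons are given with 10 intronic bases on each side, and capitals mark the AG and GT of the splice sites.
SKA1 exon 3, chr18:50380126-50380250, plus strand: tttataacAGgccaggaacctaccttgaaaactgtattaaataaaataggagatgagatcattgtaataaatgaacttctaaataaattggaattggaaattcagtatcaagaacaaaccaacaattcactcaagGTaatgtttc
SKA3 exon 2, chr13:21172620-21172681, minus strand: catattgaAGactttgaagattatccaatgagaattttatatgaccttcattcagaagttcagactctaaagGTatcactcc
NUF2 exon 7, chr1:163338020-163338093, plus strand: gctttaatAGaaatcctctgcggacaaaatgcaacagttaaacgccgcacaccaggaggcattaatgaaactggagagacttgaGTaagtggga
NDC80 exon 15, chr18:2608700-2608830, plus strand: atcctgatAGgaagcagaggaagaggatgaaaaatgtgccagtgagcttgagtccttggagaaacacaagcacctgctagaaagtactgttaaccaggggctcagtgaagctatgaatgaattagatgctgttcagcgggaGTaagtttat

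Exons that keep the frame lie in NUF2, SPC25, SKA1 and SKA3. Exon 11 of NUF2 (chr1:163345678-163345818, 141 nucleotides) holds 10.1% of the coding bases, and without it 417 of 464 codons remain. Exon 5 of SKA1 (chr18:50385216-50385353, 138 nucleotides) holds 18.0%, and without it 209 of 255 codons remain. GENCODE has 1 transcript that skips the former and 2 that skip the latter. Exon 3 of SPC25 is the shortest of these exons, with 66 nucleotides or 9.82% of the coding bases, and without it 202 of 224 codons remain. No GENCODE transcript skips it. It is given in the same way.
SPC25 exon 3, chr2:168889226-168889291, minus strand: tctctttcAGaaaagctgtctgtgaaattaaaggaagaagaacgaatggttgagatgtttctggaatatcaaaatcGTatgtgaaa

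The remaining 3 events have other structures. Exon 8 of SKA3 (chr13:21155693-21155811, 119 nucleotides) holds the last coding bases, and without it the frame would run into the last exon and close after 388 of 412 codons, a form that 1 GENCODE transcript has. The event at exon 7 of SKA3 (chr13:21157922-21158125, 204 nucleotides) joins exon 6 to the last exon, so exon 8 is absent from both of its forms. The event of NUF2 at chr1:163322867-163323095 is an exon of 229 nucleotides between exons 1 and 2 of the reference transcript, holds no coding base, and is skipped in 3 GENCODE transcripts, the listed ENST00000271452 among them.

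**Figure D5:**
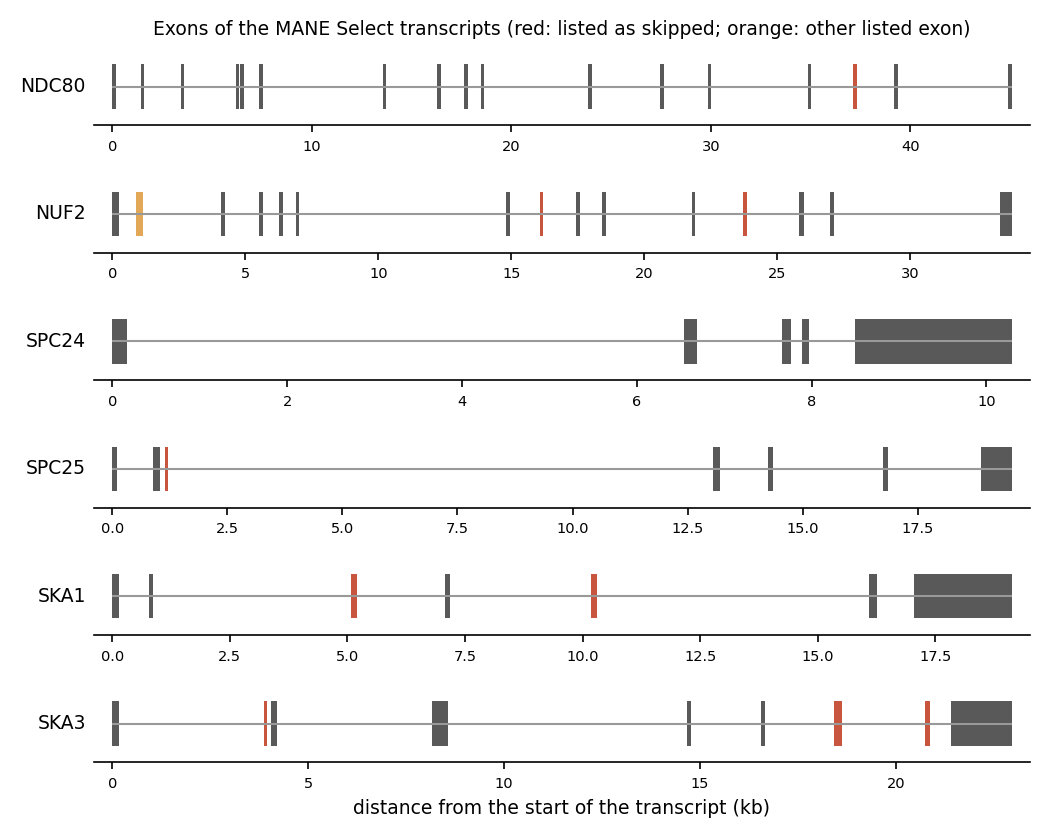
Exons (boxes) of the MANE Select transcript of each gene by distance from its start in kb (x axis, a scale of its own for each gene), with exons too narrow to see drawn wider. Red boxes are exons of the skipped exon table and the orange box is the NUF2 exon of 229 nucleotides that the reference transcript lacks, and SPC24 has no coloured box.

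The locus that the expression table gives for NUF2 is wider than the gene. It spans 213 kb on chromosome 1, against 89.2 kb in GENCODE, and includes RGS5. The exons of the 8 listed transcripts overlap no other annotated gene.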

How the data were processed

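RNA was sequenced from A549 cells after 72 h in DMSO or in 7.22 nM paclitaxel, with 1 library per condition. The authors mapped reads to hg38 with MapSplice and estimated expression with Cufflinks, while TopHat, Cufflinks, CASAVA 1.8.2 and hg38 are named in the submitters' processing notes. The deposited FPKM values are given per transcript. Which annotation release was used is not stated in the paper, labels or headers. The column marked T was read as the paclitaxel library, the only treated sample in the labels. The deposited columns of log2 fold change, p-value and q-value hold the authors' own comparison and were not used, except to check that no listed q-value reaches 0.05. In the deposited table of skipped exons, which has the layout of MATS, 6 columns of values per library name no condition. They were left out, as were the columns of inclusion difference, p-value and FDR, which hold the authors' own comparison. The positions of exons were used.

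The log2 ratio was computed from FPKM with no pseudocount and no filter. A gene with several listed transcripts (134 genes) took the one with the highest FPKM in either library. The ratio step was tested on simulated data. Alternatives were summed transcripts, pseudocounts of 1 and 0.1, filters at 1 FPKM, and ratios centred on the median of all listed transcripts. Named genes are the members, every listed gene of the kinetochore and marker lists, and the 6 genes nearest to the members' median. Members and lists were chosen with earlier results of these data known. Of the 993 transcripts, 948 were found in GENCODE 44, whose genome build is hg38. Promoter windows are from RefSeq (GRCh38.p14), and motifs were chosen with these sequences in view. Python 3.11.15, pandas 2.3.3, NumPy 2.4.6 and matplotlib 3.10.9 were used.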

Additional observations from a re-analysis of the deposited data

How the results depend on the processing

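When both libraries had to reach 1 FPKM, 3 of the 8 transcripts were left, since most levels with paclitaxel lay under 1 FPKM, and those left were all lower. They belong to NUF2, SPC24 and SPC25, but the SPC24 transcript that stands for its gene was not among them, so by the transcript that stands for each gene 2 of the 6 genes were left. The median log2 ratio of the 6 genes was -3.61 with listed transcripts summed, -2.90 on the scale log2(FPKM + 1), -3.56 on the scale log2(FPKM + 0.1) and -1.73 after centring on the median of all listed transcripts, which is itself -1.93. All 6 genes were lower under each of these 4 alternatives. Since all 8 transcripts were lower, a sum, a pseudocount or a filter could not change the direction, and only centring could. The centre of -1.93 lies near the limit of 1.52 in log2 size below which nothing is listed, so it stands for no typical change. Of the 24 other kinetochore genes, 22 were lower after centring and 18 were left with at least 1 FPKM in both libraries. The count of skipped exon events stayed at 10 when distinct exons, or exons of the annotation, were counted. No paired analysis was possible because each condition has 1 library, and no library could be left out. The unknown depth and the absence of replicates limit all values: how far levels near 1 FPKM could be told apart was not tested.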
